A study of Mus musculus with 6 samples.

Results

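The genes described here encode the subunits of the proteasome, its activators and the chaperones that assemble it. They were chosen by name, as every gene whose symbol begins with Psma, Psmb, Psmc, Psmd, Psme or Psmg followed by a digit. This rule took 50 of the 17348 genes, and 46 of them passed the filter on low counts among 13570 genes tested. The measurements come from mRNA of mouse cortex at E18.5, late in gestation, with 3 control (Ctrl) and 3 Ybx1 cKO libraries. Ybx1 encodes an RNA-binding protein that recognises 5-methylcytosine in mRNA. The cKO embryos carried Nestin-Cre and floxed Ybx1 alleles, and the Ctrl embryos were littermates labelled wild type. Elsewhere in the study the name Ctrl stands for Ybx1 fl/fl mice without Cre, and the labels do not say whether the sequenced controls carried floxed alleles. Nestin-Cre is used for deletion in the neural lineage, and Ybx1 in vessel, blood and microglial cells of the same tissue was not measured separately.

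The proteasome is the protease that degrades proteins marked with ubiquitin. Its barrel-shaped core particle is built of rings of alpha and beta subunits, and a few of the beta subunits carry the proteolytic sites. A regulatory particle caps the barrel: its base contains the ATPases that unfold and feed in substrates, and its lid removes ubiquitin. Activators of the PA28 and PA200 types can open the barrel in place of that cap. In embryonic cortex the system turns over cell cycle proteins in dividing progenitors and clears proteins in growing neurons. When proteasome capacity falls short, the transcription factor encoded by Nfe2l1 is known to raise the transcription of most subunit genes together.

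Deletion of the targeted gene was visible in every cKO library. The normalized counts of Ybx1 (CPM, edgeR's counts scaled to the TMM-adjusted library total) were 1015, 1297 and 956 under Ctrl and 24.0, 24.8 and 24.9 under cKO. This was a log2 fold change of -5.47 ± 0.168 (SE), so each library matched its label. Total estimated counts ranged from 15091951 to 16885451 per library. The cortical label also held, since all 9 cortical markers examined were present in every library, with Neurod2, a gene of excitatory neurons, at 414 to 544 CPM. The Y-linked genes Eif2s3y, Kdm5d and Ddx3y were at 41.8 to 109 CPM in the Ctrl libraries and at most 0.0639 CPM in the cKO libraries, so genotype and sex cannot be told apart in any comparison here. Ctrl replicate 2 stood apart from the other libraries. In it, 1564 genes with transcripts shorter than 1500 bases lay at a median of 0.39 above the mean of the 6 libraries on the log2 scale, against -0.17 to -0.022 in the others. The 4992 genes with transcripts over 4000 bases lay at -0.24 there, against 0.029 to 0.089 in the others. Values without that library are therefore given for most classes and named genes. Because the samples are whole tissue, less RNA per cell and fewer cells of a type cannot be told apart.

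No proteasome gene was called different between Ctrl and cKO cortex after adjustment for the genes tested. At an adjusted p under 0.05 (edgeR quasi-likelihood test, Benjamini-Hochberg adjustment), 0 of 46 members were called, where 0.0737% of all genes were. At an unadjusted p under 0.05 the count was 1 of 46, below the 6.55% of all genes. With DESeq2, 0 of the 45 members given an adjusted p were called, where 0.808% of all genes were, and 2 of 46 had an unadjusted p under 0.05, where 6.31% of all genes did. The 1 member was Psme3, which was higher in cKO, where 3.1% of all genes were called in that direction. When Ctrl replicate 2 was left out, Psme3 was again the 1 member called, against 12.2% of all genes. After a correction of each library for transcript length and GC content, 2 members were called, Psme3 higher and Psmb7 lower, against 13.5% of all genes. The data limit how large a difference could have been missed: the 95% interval of 33 of the 46 members lay within a 1.5-fold change in either direction, and that of 44 members within 2-fold. The count within 1.5-fold was 43 of 46 when Ctrl replicate 2 was left out.

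Proteasome transcripts were abundant, and the median levels of the member classes differed by place in the complex, with overlapping ranges. On the authors' TPM scale, which is per length, the 14 core subunits had mean levels of 218 to 524 TPM in Ctrl and 229 to 485 TPM in cKO. The 9 base subunits had 131 to 245 TPM in Ctrl and 143 to 261 TPM in cKO. The 8 lid subunits had 108 to 236 TPM in Ctrl and 116 to 244 TPM in cKO. Among the members chosen by symbol, the parts that act outside this cap or only during assembly had lower medians. This order does not extend to parts with other symbols. The core chaperone gene Pomp and the lid gene Sem1 had mean Ctrl levels of 380 and 506 TPM. The 4 activators tested had 58.7 to 149.97 TPM in Ctrl, and the 7 assembly chaperones had 25.5 to 70.4 TPM. Core subunits, which are present in equal numbers in the complex, differed in TPM by 2.08 to 2.47 times between the highest and the lowest gene within a library. The ratio of the core median to the median of base and lid was 1.56, 1.54 and 1.65 in the Ctrl libraries and 1.57, 1.37 and 1.52 in the cKO libraries, and the groups overlapped. Summed over all 50 genes, the level was 8096 to 8884 TPM in Ctrl and 8515 to 8683 TPM in cKO.

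**Figure D1:**
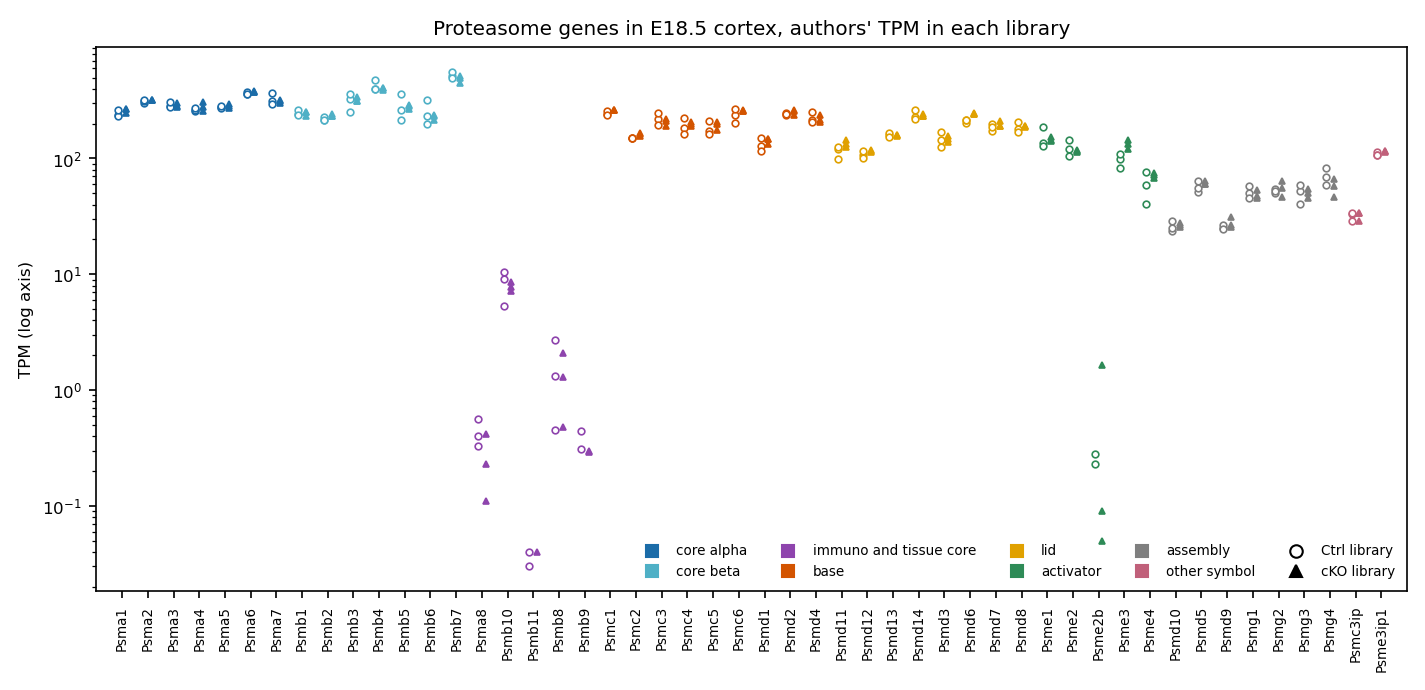
Authors' TPM (log axis) of each member in each library, for members above 0 in at least 1 library. Open circles are the 3 Ctrl libraries, filled triangles the 3 cKO libraries, and colours the place in the complex. Core subunits sit between 218 and 524 TPM in mean Ctrl level and the tissue-specific core subunits below 10.5 TPM in every library.

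Among the constitutive core subunits, 14 of 14 had a log2 fold change below 0 and 0 passed an unadjusted p of 0.05. The median was -0.15, with a range of -0.31 (Psmb6) to -0.058 (Psmb2), against a median of 0.0027 over all genes tested. With Ctrl replicate 2 left out, 9 of 14 were below 0 and the median was -0.022. The 3 catalytic subunits carry the proteolytic sites. Psmb5, with the chymotrypsin-like site, had 66.8, 108 and 52.8 CPM in Ctrl and 67.9, 69.0 and 64.2 CPM in cKO. Psmb6, with the caspase-like site, had 76.0, 123 and 63.6 CPM in Ctrl and 65.7, 73.0 and 73.0 CPM in cKO. In both genes Ctrl replicate 2 was far above the other 5 libraries, and the range of the other controls overlapped that of the cKO libraries. The log2 fold change was -0.18 ± 0.23 (SE) for Psmb5 and -0.31 ± 0.219 for Psmb6. With Ctrl replicate 2 left out it turned to 0.16 for Psmb5 and to 0.015 for Psmb6.

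Psmb7 encodes the subunit with the trypsin-like site and had the highest TPM of all members in each library. It had 145, 186 and 129 CPM in Ctrl and 113, 132 and 132 CPM in cKO. The cKO library with 113 CPM lay below all controls and the others within their range. Its log2 fold change was -0.29 ± 0.151, with an unadjusted p of 0.0875, and -0.13 without Ctrl replicate 2. After the length and GC correction it was -0.19, with an unadjusted p of 0.0496 and an adjusted p of 0.368.

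The alpha subunits form the outer rings and the gate of the barrel. Psma7 had the lowest log2 fold change of the 7 alpha subunits, -0.25 ± 0.149, from 94.5, 127 and 86.1 CPM in Ctrl and 87.5, 84.2 and 87.7 CPM in cKO. Psma1 had the highest, -0.062 ± 0.103, from 102, 116 and 109.8 CPM in Ctrl and 107, 99.9 and 108 CPM in cKO. For both genes the groups overlapped, and without Ctrl replicate 2 the values were -0.063 for Psma7 and -0.015 for Psma1. Psma3, named after its values were seen, was the 1 of 14 core subunits whose groups did not overlap, where 14.3% of all genes had such groups. It had 136, 154 and 143 CPM in Ctrl and 128, 125 and 134 CPM in cKO. Its log2 fold change was -0.16 ± 0.103 with an unadjusted p of 0.148, and -0.12 without Ctrl replicate 2, then the lowest of the alpha subunits.

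In the regulatory particle, the base and the lid were examined in turn. All 9 base subunits had a log2 fold change below 0, with a median of -0.082 that became -0.0099 without Ctrl replicate 2. The lowest was Psmc3, 1 of the 6 ATPases, with 131, 171 and 113 CPM in Ctrl, 119, 123 and 109 CPM in cKO, and a log2 fold change of -0.24 ± 0.155 that became -0.064 without Ctrl replicate 2. The ATPase gene Psmc6 was the highest at -0.016 ± 0.0999, with 136, 135 and 149 CPM in Ctrl and 141, 138 and 137 CPM in cKO. Ctrl replicate 3 was the highest library of Psmc6, and the cKO libraries lay within the range of the controls. Of the 8 lid subunits, 6 had values below 0, with a median of -0.10 that became 0.048 without Ctrl replicate 2. The lowest in the lid was Psmd13 at -0.17 ± 0.119, with 90.9, 108 and 84.3 CPM in Ctrl and 84.2, 84.9 and 83.7 CPM in cKO. The highest was Psmd11, a lid scaffold gene, at 0.062 ± 0.101, with 94.5, 95.7 and 98.6 CPM in Ctrl and 94.5, 108 and 99.4 CPM in cKO. The 2 groups overlapped for both genes, and without Ctrl replicate 2 the values were -0.056 for Psmd13 and 0.058 for Psmd11. Psmd14, named after its values were seen, encodes the lid enzyme that cuts ubiquitin from substrates and had groups that did not overlap. It was the 1 of 8 lid subunits with such groups, where 14.3% of all genes had them. It had 129, 142 and 141 CPM in Ctrl and 126, 123 and 123 CPM in cKO, a log2 fold change of -0.15 ± 0.0995 and an unadjusted p of 0.175, and at -0.12 it was the lowest lid gene without Ctrl replicate 2.

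**Figure D2:**
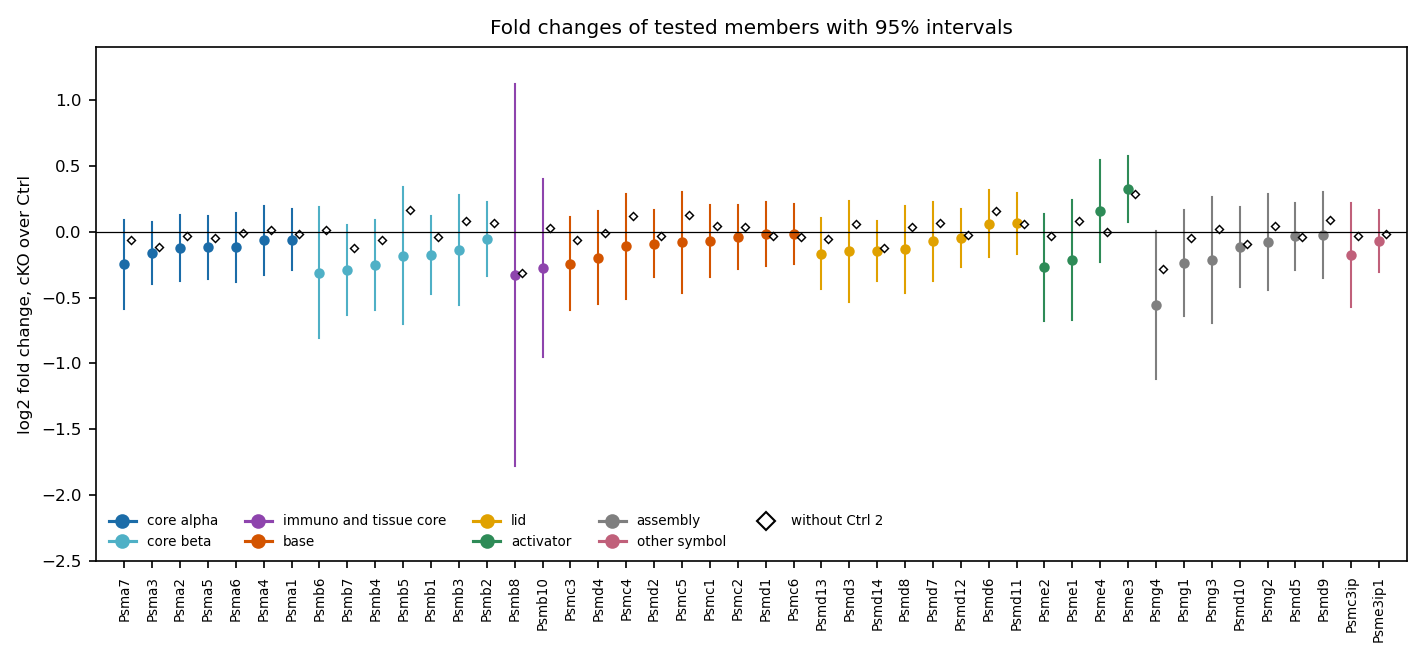
Log2 fold change (cKO over Ctrl) of the 46 tested members, grouped by place in the complex. Filled circles with bars are the values from all libraries with 95% intervals, and open diamonds the values without Ctrl replicate 2. The interval of Psme3 is the 1 that does not reach 0, and the diamonds span -0.31 to 0.29.

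Over all members, 42 of 46 log2 fold changes were below 0 (91.3%), against 49.4% of all genes. The median of the members was -0.12. This share depended on Ctrl replicate 2: without it, 26 of 46 were below 0 (56.5%, against 48.9% of all genes) and the median was -0.013. That library had the highest normalized count of the 6 libraries in 38 of the 46 members (82.6%, against 33.6% of all genes), and in all 14 core subunits. The median deviation of the members from the mean of the 6 libraries was 0.27 in Ctrl replicate 2 and -0.092 to -0.019 in the other 5. Counted by groups that did not overlap, there were 3 members (Psma3, Psmd14 and Psme3), against 14.3% of all genes. Leaving out Ctrl replicate 2 gave 4 tested members, Psmd6 being the added one, against 29.9% of all genes. Leaving out Ctrl replicate 3 instead gave 12 of 46 members at an unadjusted p under 0.05, against 13.9% of all genes. Of these, 10 were lower in cKO, where 7.95% of all genes were called in that direction, and the smallest adjusted p among the members was 0.273.

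The sign of the members' median also depended on the scale. With all libraries, that median lay below the median of all genes on both scales. On log2(TPM + 1), which the authors' length normalization enters, 16 of 46 members (34.8%) were lower in cKO, against 20.6% of all genes tested, and the median difference was 0.042. Over all genes tested the median difference was 0.14 on that scale, above that of the members. The TPM medians without Ctrl replicate 2 were 0.060 for the members and 0.075 for all genes, while the share lower in cKO was then smaller among the members (6 of 46, 13%) than among all genes (31.5%).

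**Figure D3:**
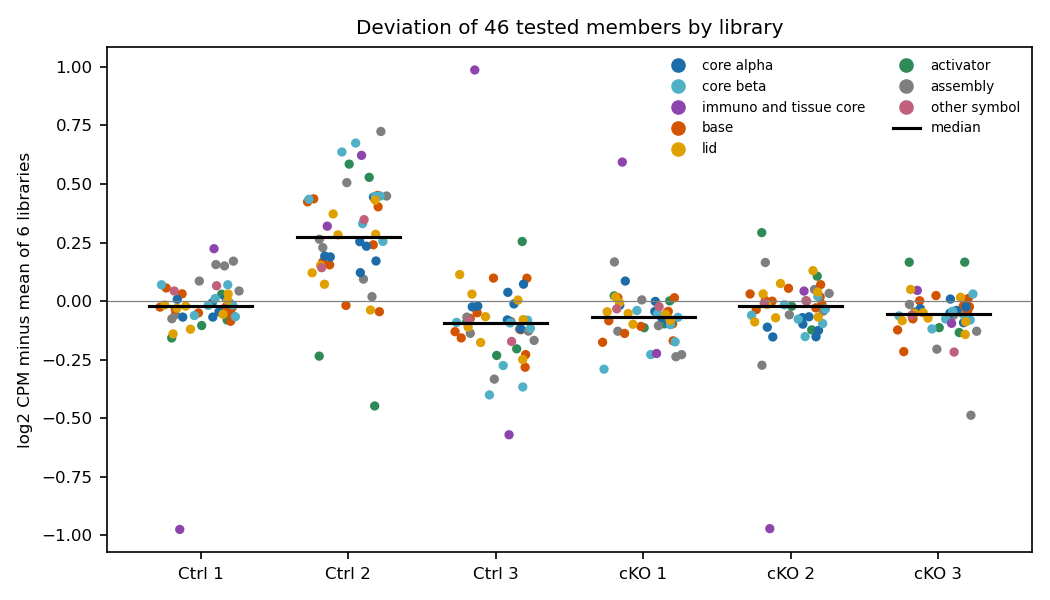
Deviation of each of the 46 tested members from its own mean over the 6 libraries, in log2 CPM. Points are genes coloured by place in the complex and black lines are medians, which lie at 0.27 in Ctrl replicate 2 and between -0.092 and -0.019 in the other libraries.

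Most members have short transcripts, with a median of 1491 bases against 3317 bases for all genes tested. Their deviation in Ctrl replicate 2 moved with that length. Across the 46 members it had a Pearson r of -0.75 and a Spearman rho of -0.68 with log2 transcript length, and 0.69 and 0.78 with GC content. In the other libraries Spearman rho ran from -0.16 to 0.48 with length and from -0.73 to 0.19 with GC content. Ctrl replicate 3 had 0.48 and -0.73, and it remains in the values without Ctrl replicate 2. Deviations are taken from the mean of the 6 libraries, so 1 library also shifts the others. Each correlation is over genes of 1 library, which are no replicates. For the 14 members with transcripts under 1200 bases, the median deviation in Ctrl replicate 2 was 0.45. Their median log2 fold change was -0.23 with that library and 0.0013 without it. The 20 members of 1200 to 2000 bases had a deviation of 0.28 and log2 fold changes of -0.12 with and -0.012 without that library. The fold changes include Ctrl replicate 2 itself, and length and GC content were not separated. The 12 longer members had a deviation of 0.081 and log2 fold changes of -0.032 with and -0.023 without it. With the length and GC correction and all libraries kept, the medians were -0.059 for the core, -0.0064 for the base, -0.034 for the lid and -0.040 over all members. The part of RNA quality in these values was not tested.

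**Figure D4:**
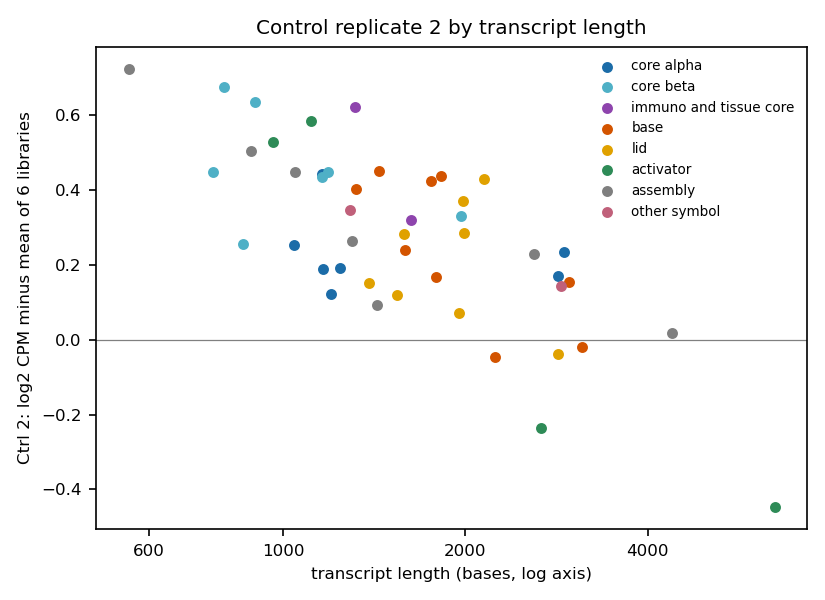
Deviation of the 46 tested members in Ctrl replicate 2 (log2 CPM minus the mean of the 6 libraries) against transcript length in bases on a log axis. Points are genes coloured by place in the complex, and the deviation falls from a median of 0.45 under 1200 bases to 0.081 over 2000 bases.

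Psme3 encodes the gamma subunit of PA28, a nuclear activator that lets the core degrade certain proteins without ubiquitin. The gene lies at chr11:101316213-101323537 on the plus strand of GRCm38. It had 107, 101 and 112 CPM in Ctrl and 121, 146 and 134 CPM in cKO, so every cKO library was above every Ctrl library. In Ctrl replicate 2 this gene was the lowest of the 6 libraries, opposite to most members. The log2 fold change was 0.32 ± 0.111, with a 95% interval of 0.072 to 0.58, an unadjusted p of 0.0172 and an adjusted p of 0.616. An exact permutation test of the 6 libraries gave p = 0.1, the smallest that 3 against 3 allow. Any gene whose groups do not overlap gets that p, and 14.3% of all genes had such groups. The log2 fold change of Psme3 without Ctrl replicate 2 was 0.29 with an adjusted p of 0.233. After the length and GC correction it was 0.34 with an adjusted p of 0.112. Over all alternatives the unadjusted p ranged from 0.0035 to 0.0947 and the adjusted p from 0.112 to 0.9999. Leaving out Ctrl replicate 1, cKO replicate 2 or cKO replicate 3 took the unadjusted p to 0.05 or above, and the log2 fold change stayed between 0.26 and 0.39 whichever library was left out.

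The other activators did not show that pattern. Psme1 and Psme2, which form the cytoplasmic PA28 ring and are known to respond to interferon, had log2 fold changes of -0.21 ± 0.201 and -0.27 ± 0.18. Psme1 had 41.3, 66.6 and 37.8 CPM in Ctrl and 41.0, 43.7 and 41.0 CPM in cKO. Psme2 had 31.9, 45.1 and 27.1 CPM in Ctrl and 29.2, 28.7 and 28.5 CPM in cKO. Both were highest in Ctrl replicate 2, and without it the values were 0.084 and -0.037. Psme4, which encodes PA200 and has the longest transcript of the members, was lowest in Ctrl replicate 2. It had 163, 126 and 205 CPM in Ctrl and 172, 185 and 193 CPM in cKO, with a log2 fold change of 0.16 ± 0.169 and of -0.0033 without that library. The share of Psme3 in the summed TPM of Psme1, Psme2 and Psme3 was 28.1%, 19.9% and 31.6% in Ctrl and 31.5%, 35.1% and 34.2% in cKO, so the groups overlapped at Ctrl replicate 3 and cKO replicate 1. Psme2b, a copy of Psme2 that may share reads with it, had at most 8.44 estimated counts in a library and was not tested.

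**Figure D5:**
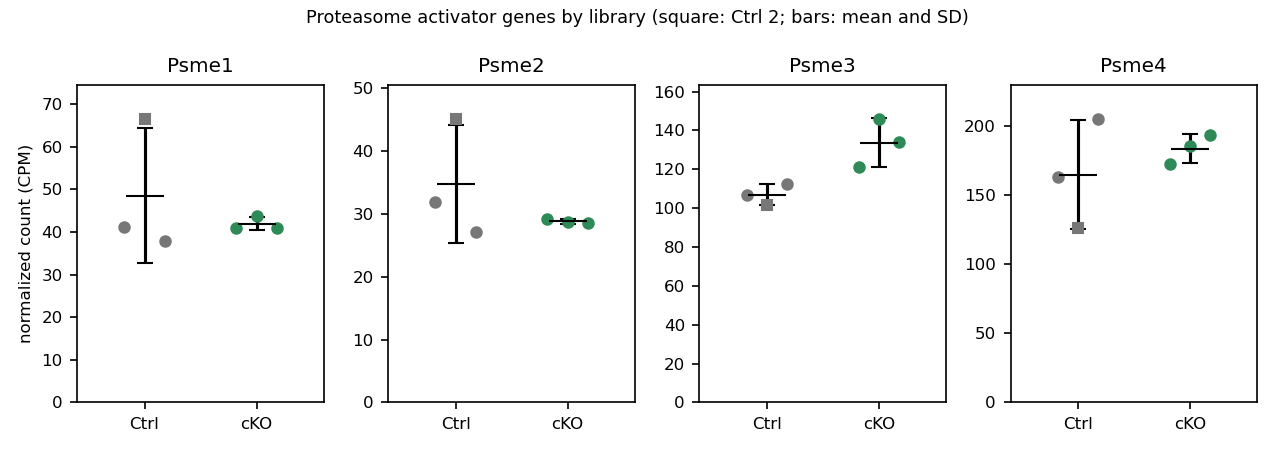
Normalized counts (CPM) of the 4 tested activator genes in each library, with Ctrl in grey and cKO in green. Horizontal bars are the mean and SD of 3 libraries and the square is Ctrl replicate 2. Psme3 lies at 101 to 112 CPM in Ctrl and 121 to 146 CPM in cKO, whereas Psme1, Psme2 and Psme4 overlap.

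The stretches upstream of Psme3, as the 1 member past the unadjusted threshold, and of Psmb5, as a constitutive catalytic subunit, are printed below from the RefSeq promoter table (build GRCm38.p6), 5′ to 3′ on the strand of the gene and ending before the first annotated transcript start. Capitals mark matches to CCAAT or to TGANNNNGC, the core of the antioxidant response element to which the Nfe2l1 product binds, on either strand. The Psme3 stretch is chr11:101315963-101316212 on the plus strand, and that of Psmb5 is chr14:54618023-54618245 on the minus strand.
Psme3: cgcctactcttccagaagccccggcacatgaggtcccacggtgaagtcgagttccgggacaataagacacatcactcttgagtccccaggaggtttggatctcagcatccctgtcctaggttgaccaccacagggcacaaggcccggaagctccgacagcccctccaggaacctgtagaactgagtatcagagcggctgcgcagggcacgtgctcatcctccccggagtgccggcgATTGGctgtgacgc
Psmb5: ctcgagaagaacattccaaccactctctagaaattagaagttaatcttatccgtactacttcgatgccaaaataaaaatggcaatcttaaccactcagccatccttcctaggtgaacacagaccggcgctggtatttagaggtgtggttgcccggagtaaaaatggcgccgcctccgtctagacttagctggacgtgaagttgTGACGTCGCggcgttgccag
The Psme3 stretch held 1 CCAAT match, read as its reverse complement, and 0 TGANNNNGC matches, and the Psmb5 stretch held 1 TGANNNNGC match and 0 CCAAT matches. Of the 50 members, 42 had an entry in that table, with 46 windows of 250 bases. TGANNNNGC was found in 19 of these windows (41.3%), against 35.2% of 32851 windows of all genes, and CCAAT in 16 (34.8%), against 33.8%. Each motif was found in 6 of the 12 core windows and in 4 of the 15 base and lid windows. Matches of the motifs were counted separately and may overlap. A match describes the letters and not binding.

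The immunoproteasome subunits, which replace the constitutive catalytic subunits in immune cells and under interferon, were rare in this tissue. Psmb10, the counterpart of Psmb7, had 4.01, 5.33 and 2.26 CPM in Ctrl and 2.91, 3.52 and 3.19 CPM in cKO. Psmb8, the counterpart of Psmb5, had 0.188, 0.644 and 1.10 CPM in Ctrl and 0.805, 0.189 and 0.511 CPM in cKO. Some of these Psmb8 values are near the floor of 3 counts, which was 0.178 to 0.199 CPM per library and covers counting error only, and the libraries of both groups were interspersed. Psmb9, the counterpart of Psmb6, had between 0 and 3 counts in a library. The log2 fold changes were -0.28 ± 0.298 for Psmb10 and -0.33 ± 0.639 for Psmb8, and neither passed the test. They were 0.024 and -0.31 without Ctrl replicate 2. By TPM, these 3 genes made up 0.896% to 0.996% of the summed constitutive and immune catalytic subunits in all 6 libraries. The genes and cells that usually accompany immune subunits were examined beside them. Of 14 interferon response genes, 11 were tested and 0 had an unadjusted p under 0.05, where 6.55% of all genes did. Their summed level was 118 to 177 TPM in Ctrl and 143.5 to 160.0 TPM in cKO. All 12 microglial markers were tested and 0 had an unadjusted p under 0.05, against the same 6.55%. In 10 of the markers the value was above 0 and in 2 below it (16.7%, against 49.4% of all genes). The summed level of the markers was 132 to 177 TPM in Ctrl and 188 to 195 TPM in cKO, without overlap. By normalized counts, 2 of the 12 markers had groups that did not overlap, both higher in cKO, against 14.3% of all genes. On log2(TPM + 1), the median difference over all genes tested was 0.14, higher in cKO. The part of interferon response and microglia in the immune subunits' values was not tested. The remaining tissue-specific core genes were also at the floor. Psma8, the alpha subunit of male germ cells, had at most 5 counts in a library, and Psmb11, the beta subunit of thymus, had at most 1 count, and neither was tested.

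Assembly of the core is guided by paired chaperones encoded by Psmg1 to Psmg4. Psmg4 had the lowest log2 fold change of all members, -0.56 ± 0.246, with a 95% interval of -1.12 to 0.0013, an unadjusted p of 0.0504 and an adjusted p of 0.758. It had 7.02, 10.4 and 5.69 CPM in Ctrl and 5.26, 6.04 and 4.41 CPM in cKO, with overlap between the groups. Ctrl replicate 2 was the highest library, and the Psmg4 transcript, at 555 bases, is the shortest of the tested members. Without that library the value was -0.28, and with the length and GC correction -0.29. Psmg2 had the highest value of the 4 core chaperones, -0.080 ± 0.162, with 17.9, 22.7 and 18.02 CPM in Ctrl and 21.2, 15.6 and 18.7 CPM in cKO. Its libraries were mixed between the groups, and without Ctrl replicate 2 the value was 0.043.

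The base is assembled by another set of chaperones. Psmd10 had the lowest value of the 3 base chaperone genes, -0.11 ± 0.134, with 14.9, 14.2 and 12.5 CPM in Ctrl and 12.4, 13.3 and 12.8 CPM in cKO. It is the only member on the X chromosome, and its value, -0.096 without Ctrl replicate 2, therefore also compares embryos that differ in sex-linked transcripts. Psmd9 had the highest value, -0.026 ± 0.144, with 26.1, 31.9 and 24.7 CPM in Ctrl and 24.9, 30.5 and 25.9 CPM in cKO, and its value was 0.091 without Ctrl replicate 2. Over the 7 assembly genes, 7 values were below 0 and 0 passed the test, with a median of -0.11, of -0.039 without Ctrl replicate 2 and of -0.084 with the length and GC correction. Psmc3ip and Psme3ip1 match the naming rule but encode proteins named for binding a subunit, and no proteasome part. Their log2 fold changes were -0.18 ± 0.174 and -0.071 ± 0.104, and -0.030 and -0.016 without Ctrl replicate 2.

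Of 17 further proteins that work with the proteasome but carry other symbols, 0 had an unadjusted p under 0.05, where 6.55% of all genes did. Of their values, 8 were below 0 (47.1%, against 49.4% of all genes), and the median was 0.045. Their transcripts were longer than those of the members, with a median of 3686 against 1491 bases. Pomp, the chaperone that completes the core, had a log2 fold change of -0.22 ± 0.129, and -0.078 without Ctrl replicate 2, from 71.5, 93.4 and 72.1 CPM in Ctrl and 71.1, 65.4 and 67.7 CPM in cKO. Adrm1, a ubiquitin receptor of the base, had -0.19 ± 0.23, which turned to 0.13 without Ctrl replicate 2. Sem1, a small lid subunit, had 0.070 ± 0.14, and Psmf1, an inhibitor of the core, had -0.044 ± 0.124, with 0.20 and 0.036 when that library was left out. Of the 7 genes around Nfe2l1 that regulate subunit transcription, 0 had an unadjusted p under 0.05, against 6.55% of all genes. Nfe2l1 itself had 149, 148 and 135 CPM in Ctrl and 149, 148 and 150.3 CPM in cKO, with a log2 fold change of 0.048 ± 0.1 and of 0.066 without Ctrl replicate 2.

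Of 7 genes of the ubiquitin list, 2 had an unadjusted p under 0.05, where 6.55% of all genes did. Both were lower in cKO, and 0 passed the adjusted threshold. These were Ubb, a ubiquitin precursor gene, and Rps27a, which encodes ubiquitin fused to a ribosomal protein. Ubb had 1597, 2088 and 1408 CPM in Ctrl and 1210.2, 1287 and 1183 CPM in cKO. Rps27a had 387, 471 and 335 CPM in Ctrl and 317, 297 and 325 CPM in cKO. In both genes every cKO library was below every Ctrl library, and Ctrl replicate 2 was the highest. Of all genes, 14.3% had groups that did not overlap. The log2 fold changes were -0.47 ± 0.156 for Ubb and -0.34 ± 0.141 for Rps27a, with edgeR adjusted p-values of 0.597 and 0.728. The DESeq2 adjusted p-values were 0.197 and 0.511. Leaving out Ctrl replicate 2 gave log2 fold changes of -0.29 and -0.20. After the length and GC correction, Ubb had -0.34 with an edgeR adjusted p of 0.0397, and Rps27a had -0.21 with 0.179. With that correction 204 of all genes passed an adjusted p of 0.05, against 10 without it. Near-identical copies of these genes could share reads, and how the authors counted such reads is not given in the sources used here.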

How the data were processed

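Cortices of Ybx1 cKO embryos and Ctrl littermates were sequenced at E18.5 as 3 libraries per group. Groups and replicate numbers came from the submitters' labels. The authors deposited 1 table of 27 columns, of which the 18 sample columns (an expected count, a TPM and an FPKM value per library) were mapped. The authors' expected counts were not normalized between libraries, and 89.4% of them were whole numbers. The deposited TPM values are scaled to transcript length and a common total, and the deposited FPKM values to length and library total. The submitters' processing notes name HISAT2 2.2.1, Bowtie2 2.4.5, RSEM 1.3.1 and the builds GRCm38 and mm10, without their roles. The annotation and strandedness are not given in the sources used here.

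Expected counts were rounded, filtered with filterByExpr, scaled by TMM and compared with edgeR 4.0.16 (robust quasi-likelihood test) in R 4.3.3 over all genes. DESeq2 1.42.0, other scalings and filters, each library left out, a replicate block and a length and GC correction (mgcv 1.9.3, longest coding transcript in GENCODE M21, found for 50 members and 96.7% of all genes) were alternatives. The TPM scale (pseudocount 1) was added after seeing the data, and TPM and FPKM were not tested. The code was tested on simulated data. Errors after ± are SE unless named SD. Counts of 15091951 to 16885451 per library put 3 counts at 0.178 to 0.199 CPM, and the biological coefficient of variation was 0.147. No libraries of a group were duplicates (chi-square per degree of freedom 3.53 to 65.6). Separate embryos are not named per library, so p-values measure the spread between libraries. The members, lists and tests were chosen with earlier results of these data known. Genes named were Ybx1, members with an unadjusted p under 0.05, the catalytic subunits and their immune counterparts, the highest and lowest fold change of each class, the highest and lowest FPKM, untested members, Pomp, Adrm1, Sem1, Psmf1 and Nfe2l1, and listed pathway genes with an unadjusted p under 0.05. Others are named as chosen later or as examples of a count. Of the other marker lists, 1 of 9 endothelial genes tested (Cdh5, higher in cKO), 0 of 7 erythroid and 1 of 9 cortical genes (Pax6, higher in cKO) had an unadjusted p under 0.05. The share over all genes was 6.55%. Items withheld for evaluation are not reported here. Plots used Python 3.11.15 and matplotlib 3.10.9.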

Additional observations from a re-analysis of the deposited data

How the results depend on the processing

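Under every alternative run, 0 members had an adjusted p under 0.05. The number at an unadjusted p under 0.05 was 1 with all libraries, where 889 of all genes passed. It was 2 with RLE size factors, DESeq2, no filter on low counts, the length and GC correction or TMM without ribosomal protein and proteasome genes. Over all genes these settings gave 893, 856, 1020, 1837 and 895, in that order. With a library left out, 0 to 12 members passed. The 12 came without Ctrl replicate 3 (1911 of all genes), and 0 without Ctrl replicate 1 (728) or cKO replicate 3 (483). Same-numbered libraries deviated together only weakly (correlations of 0.0884, 0.0615 and 0.230), and not every pair exceeded 0.1. Ctrl and cKO libraries with different numbers had correlations of -0.146 to 0.0588, all below those of the same-numbered pairs. The series' description mentions 3 sequencing batches, and whether a number marks one is not given, so the block is only an alternative here. The replicate block gave 2 members at the unadjusted threshold (Psme3 and Psmg4) and 1037 of all genes. The replicate block with length and GC correction gave 3 members at that threshold. For all genes it gave 269 at the adjusted and 2076 at the unadjusted threshold.

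Over all genes, 10 passed an adjusted p of 0.05 with edgeR on all libraries, 99 with DESeq2, 204 with the length and GC correction and 8 to 143 with a library left out (19 without Ctrl replicate 3, 143 without Ctrl replicate 2). At the unadjusted threshold, 889 became 1837 with the correction and 483 to 1911 with a library left out. Members' median log2 fold changes with a library left out ranged from -0.22 to -0.022 for the core, -0.14 to -0.0099 for the base, -0.17 to 0.048 for the lid, -0.085 to 0.040 for activators, -0.18 to -0.039 for assembly and -0.17 to -0.013 over all members, each upper value coming without Ctrl replicate 2. On the authors' TPM scale, where all genes had a median of 0.14, these were 0.038 for the core, 0.089 for the base, 0.061 for the lid, 0.15 for activators and 0.042 over all members.

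With each library left out in turn, 22 of the 46 members had values of both signs, none with an adjusted p under 0.05, and 18 changed sign without Ctrl replicate 2. The named ones are given here, with Adrm1, Psmf1 and Sem1 and, for Psme1 and Psme4, above. On the log2 scale, values are of cKO over Ctrl. Leaving out each library in turn gave values from -0.39 to 0.13 for Adrm1, -0.54 to 0.024 for Psmb10, -0.13 to 0.068 for Psmb2, -0.39 to 0.16 for Psmb5, -0.50 to 0.015 for Psmb6, -0.12 to 0.091 for Psmd9, -0.13 to 0.036 for Psmf1 and -0.19 to 0.043 for Psmg2, each upper value coming without Ctrl replicate 2. They ranged from -0.85 to 0.25 for Psmb8, -0.043 to 0.030 for Psmc6 and -0.0015 to 0.20 for Sem1, where the sign turned without Ctrl replicate 3, and for Psmb8 also without cKO replicate 2. With the length and GC correction they were 0.087 for Psmb2, 0.043 for Psmb5, 0.0035 for Psmc6 and 0.026 for Psmd9, and with the block added 0.086, 0.049, 0.0045 and 0.025. The cause was not tested. With 3 libraries per group, the intervals of Psmb8, Psmb10 and Psmg4 reached -1.78, -0.95 and -1.12 on the log2 scale. Those of the catalytic subunits Psmb5, Psmb6 and Psmb7 reached -0.70, -0.81 and -0.63. The interval lay within 1.5-fold for 33 of the 46 members. Differences beyond 1.5-fold could be missed in the others, among them all the genes just named.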
